A study of Mus musculus with 6 samples.

Results

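Ccr9 is a chemokine receptor gene, and its single probe set, ENSMUSG00000029530_at, was read on all 6 arrays of a study of Notch signalling in Beko, a leukaemia cell line of the mouse T lineage. It is 1 of 22414 probe sets in the deposited table. The gene was chosen by its own values, namely the log2 level on each array, the treated minus vehicle difference in each of 3 pairs and its rank among all probe sets. These values are therefore given as a description, with no test. Each of the 6 conditions had 1 array of biotin-labelled total RNA, so the differences within pairs have no replicate check.

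The parental cells received 10 μM DAPT or its solvent DMSO for 24 h. DAPT inhibits γ-secretase, the protease that releases the intracellular part of Notch. Cells infected with a DNMAML-ER fusion, and others infected with a Notch1-ER fusion, were selected and then received 0.75 μg/mL hydroxytamoxifen (OHT) or ethanol for 48 h. DNMAML is a dominant-negative Mastermind that blocks transcription by the Notch complex. The ER part of each fusion is a hormone-binding part of the oestrogen receptor that OHT switches on. The labels do not say whether a fusion line was 1 clone, and they record no batch. The ethanol cells of each line carry the fusion as well, whereas the DMSO cells carry none.

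CCR9 is a G protein-coupled receptor on the cell surface whose ligand is the chemokine CCL25, made in the thymus and in the small intestine. In the mouse it guides T-cell progenitors to the thymus and lymphocytes to the gut, and most thymocytes that carry both CD4 and CD8 display it. Notch signalling has been reported to repress the gene in mouse T-lymphocyte progenitors, where E proteins, a class of basic helix-loop-helix transcription factor, activate it. That report is background only, and whether it rests on these same arrays was not checked. When the intracellular part of Notch reaches the nucleus, it binds the DNA-binding protein RBPJ and Mastermind, and this complex drives transcription.

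The promoter window is shown because the treatments act on transcription driven by Notch. It comes from RefSeq (GRCm38.p6, chr9:123766961-123767260, plus strand), spans 250 bases before to 50 bases after the annotated start, and has a GC content of 51.3% with 4 CpG dinucleotides. Capitals mark matches to the E-box CANNTG, the sequence that E proteins bind, which reads the same on both strands.
Ccr9 promoter: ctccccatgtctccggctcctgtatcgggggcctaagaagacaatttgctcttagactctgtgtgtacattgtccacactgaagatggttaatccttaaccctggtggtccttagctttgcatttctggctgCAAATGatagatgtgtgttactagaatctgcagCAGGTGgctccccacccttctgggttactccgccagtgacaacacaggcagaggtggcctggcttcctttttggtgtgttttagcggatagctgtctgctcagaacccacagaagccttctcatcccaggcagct

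The window holds 2 E-boxes. The first, CAAATG, starts 118 bases before the annotated start. The second, CAGGTG, starts 85 bases before it. An E-box of any kind occurs in 72.3% of the 32851 windows of this length in the RefSeq table. The letters CAGGTG, read on both strands and contained in the E-box pattern, occur in 20.2%. A search on both strands for CAGCTG, another E-box that E proteins bind, found 0 matches, and 16.3% of windows hold it. The core letters of the RBPJ motif, TGGGAA, were searched on both strands with 0 matches in the Ccr9 window, and 25.6% of windows hold them. These matches describe letters in a short window. They do not show binding, and nothing about a factor follows from a missing match. In the annotation Ccr9 lies between Lztfl1 and Fyco1, with Cxcr6, another chemokine receptor gene, listed after Fyco1, and the long non-coding RNA gene Gm17021 overlaps it. The sources used here give neither the probe sequences nor the genome build behind the probe set, and a contribution of that RNA to the probe set was not tested.

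Ccr9 was much higher where Notch was inhibited than in any vehicle condition, by 17.0-fold and 11.6-fold within the pairs, and lowest where Notch1-ER was switched on. The levels below are deposited RMA values on the log2 scale, where 1 unit is a 2-fold change. The parental cells had 7.12 with DMSO and 11.21 with DAPT. The DNMAML-ER line had 6.90 with ethanol and 10.43 with OHT. The Notch1-ER line had 6.73 with ethanol and 5.57 with OHT. Both arrays with inhibited Notch were thus above every other array, and the array with Notch1-ER switched on was below every other array.

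**Figure D1:**
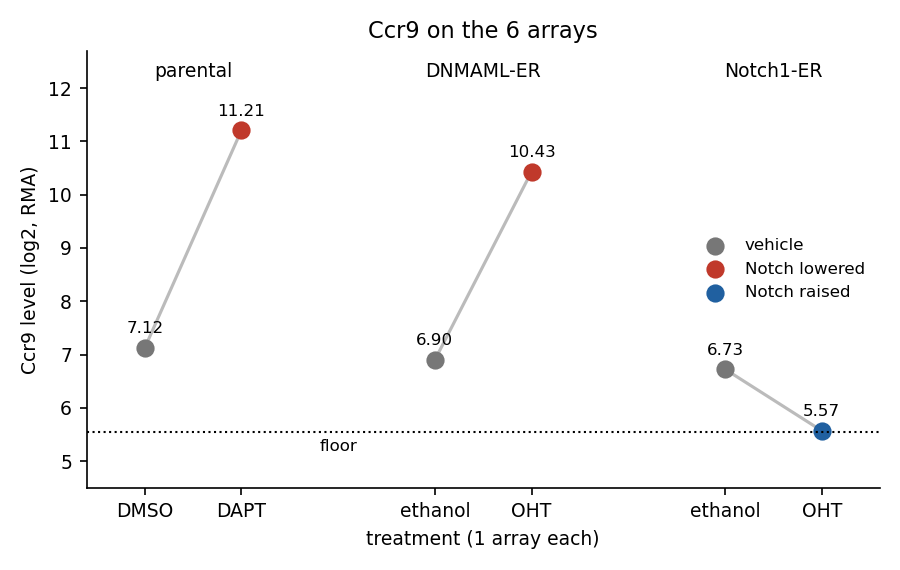
Ccr9 level (log2, RMA) on each of the 6 arrays, 1 point per array, with a grey line joining the vehicle and the treated array of each pair and a dotted line at the floor of 5.54. The vehicle arrays lie between 6.73 and 7.12, the Notch-inhibited arrays at 10.43 and 11.21, and the Notch1-ER OHT array at 5.57.

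In rising order the arrays ran Notch1-ER with OHT, Notch1-ER with ethanol, DNMAML-ER with ethanol, DMSO, DNMAML-ER with OHT and DAPT. The steps between the vehicle arrays were small. Ccr9 differed by -0.17 between Notch1-ER and DNMAML-ER with ethanol, by -0.22 between DNMAML-ER with ethanol and DMSO, and by -0.40 between Notch1-ER with ethanol and DMSO. Across all probe sets that reached the floor, the same 3 differences had standard deviations of 0.19, 0.37 and 0.36. The first 2 of these Ccr9 differences were smaller than that scatter and the last was slightly larger. These vehicle arrays differ in fusion, and DMSO differs from ethanol in solvent and time too, so they are not replicates. In none of the 3 comparisons did Ccr9 reach 2-fold. Of all probe sets, 1.99% did so between DNMAML-ER with ethanol and DMSO, 1.59% between Notch1-ER with ethanol and DMSO, and 0.107% between the ethanol arrays.

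Ccr9 was higher with each Notch inhibitor than with its vehicle. With DAPT the difference from DMSO was 4.08 on the log2 scale, or 17.0-fold. With DNMAML-ER switched on, the difference from ethanol was 3.53, or 11.6-fold. Each was the largest of the 12150 probe sets that reached the floor, a log2 level of 5.54 on at least 1 array, a value set at the median of the probe sets' mean levels. The probe set in second place had 3.45 with DAPT, and a probe set in second place with DNMAML-ER had 2.84. Ccr9 therefore stood 0.64 above the next probe set with DAPT and 0.69 above it with DNMAML-ER. As a background, 1.05% of the 12150 probe sets were at least 2-fold higher with DAPT and 0.51% with DNMAML-ER. These shares come from the contrasts that chose the gene.

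The scatter of probe sets depended on their level. Ccr9 belonged to the middle tertile of the 12150 probe sets by mean level. In that tertile, leaving Ccr9 out, the differences had a standard deviation of 0.33 with DAPT, 0.27 with DNMAML-ER and 0.24 with Notch1-ER. The widest differences of any other probe set in that tertile had a size of 2.07 with DAPT and 2.02 with DNMAML-ER, below those of Ccr9. With Notch1-ER the differences of the other probe sets in that tertile ran from -1.40 to 3.28, and 1 of them was lower than Ccr9 at -1.16. In the low tertile, the corresponding standard deviations were 0.40, 0.30 and 0.27. The widest differences with DAPT and DNMAML-ER were larger outside the middle tertile, at 3.45 and 2.84 in the low and 2.87 and 2.38 in the high tertile. The mean level that placed Ccr9 includes the arrays with inhibited Notch, where it was high.

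**Figure D2:**
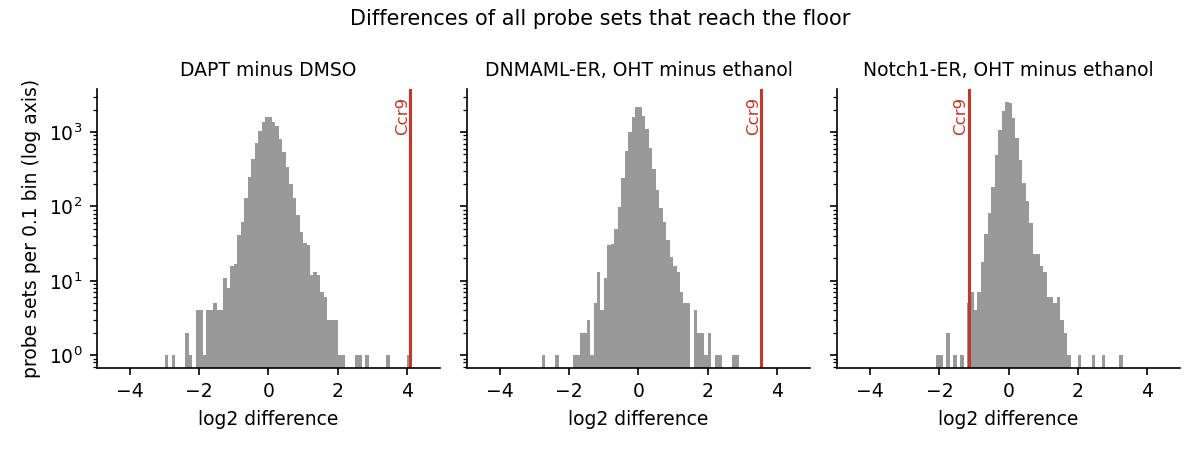
Log2 differences of the 12150 probe sets that reach the floor, in bins of 0.1 with the number of probe sets on a log axis, for the DAPT, DNMAML-ER and Notch1-ER pairs. The red line marks Ccr9, at the far right end with DAPT (4.08) and DNMAML-ER (3.53) and near the left end with Notch1-ER (-1.16).

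The Ccr9 levels under the 2 inhibitors lay apart, with no replicate to judge the gap by. The DAPT array was 0.77 above the DNMAML-ER OHT array, or 1.71-fold, and the difference within the pair was larger with DAPT by 0.55. Over all probe sets this gap between the DAPT and DNMAML-ER differences had a standard deviation of 0.32, and 783 probe sets had a larger one in size than Ccr9. The DAPT pair was taken at 24 h in parental cells and the DNMAML-ER pair at 48 h in fusion-carrying cells, so inhibitor, time and line cannot be told apart.

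**Figure D3:**
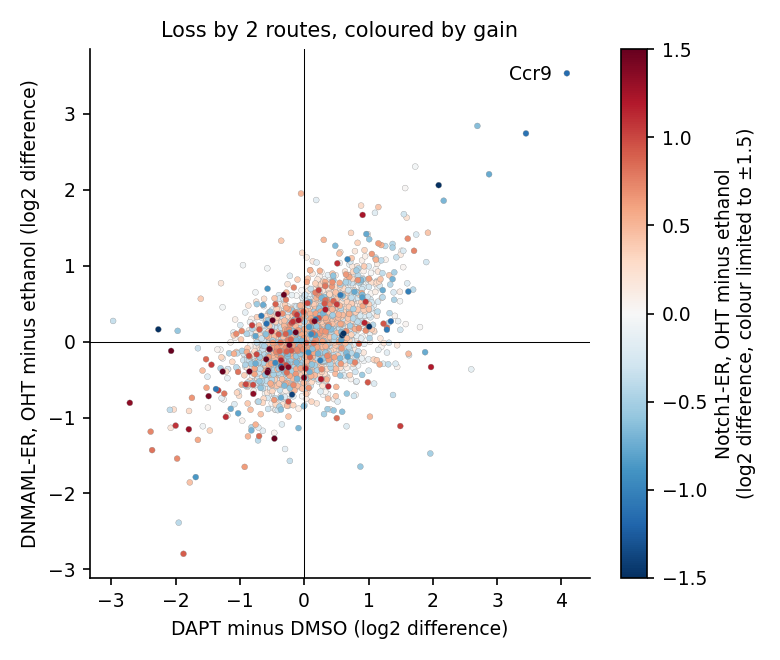
Difference with DNMAML-ER (log2, OHT minus ethanol) against difference with DAPT (log2, DAPT minus DMSO) for the 12150 probe sets, 1 point each, coloured by the Notch1-ER difference (log2, OHT minus ethanol, blue lower and red higher). Ccr9 is the point farthest to the upper right, at 4.08 and 3.53, and is blue.

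In the Notch1-ER line Ccr9 was lower with OHT than with ethanol. With OHT the log2 level was 5.57 against 6.73 with ethanol, a difference of -1.16, or 2.23-fold lower. This was the eighth lowest of the 12150 differences, which began at -2.01. Its neighbours in the ranking lay close by, at -1.16 and -1.14, so the place itself is not sharply set. As a background, 0.148% of the probe sets were at least 2-fold lower in this pair. The treated level lay only 0.03 above the floor. RMA values are compressed at low levels, so a difference that ends there may be understated. Of the 7 probe sets below Ccr9 in this ranking, 4 reached the floor on both arrays of the pair. Among the 10943 probe sets that did, Ccr9 was the fifth lowest. Of the same 7 probe sets, 5 were higher with DAPT and with DNMAML-ER by any amount, and 1 was at least 2-fold higher with both. The share of all 12150 probe sets higher with both was not computed, so nothing is read from these counts.

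At 2-fold in all 3 pairs, Ccr9 was 1 of 3 probe sets that were higher with both inhibitors and lower with Notch1-ER. It was the only 1 of those 3 that reached the floor on all 6 arrays, as 10306 probe sets of the table did. On the Notch1-ER OHT array Ccr9 passed the floor by only 0.03, so this distinction depends on where the floor was set. At 1.5-fold 16 probe sets had this pattern. In the mirror pattern, lower with both inhibitors and higher with Notch1-ER, there were 2 probe sets at 2-fold.

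Levels rather than pairs give a stricter view of the same arrays. For Ccr9 the lower of the Notch-inhibited arrays (DNMAML-ER with OHT, 10.43) was 3.31 above the highest vehicle array (DMSO, 7.12), a gap of 9.91-fold. The lowest vehicle array (Notch1-ER with ethanol, 6.73) was 1.16 above the Notch1-ER OHT array. The vehicle arrays themselves spanned 0.40, less than either gap. Of the 12150 probe sets, 384 (3.16%) showed this order without overlap, and 302 (2.49%) showed the reverse order. Most of these gaps were small, with a median of 0.05 for the smaller of the 2 gaps of each of the 384 probe sets. Ccr9 had the largest gap on the side of Notch inhibition, where the next was 2.63, and the second largest on the side of Notch1-ER, where the largest was 1.70. With both gaps at least 2-fold there were 2 probe sets, Ccr9 among them, and with both at least 1.5-fold there were 6. In the reverse order 0 probe sets had both gaps at 2-fold and 6 had both at 1.5-fold. The count of 0 was a near miss, since the widest smaller gap there was 0.99 against a limit of 1. The 2 probe sets in the order of Ccr9 had 1.16 and 1.11. These orders use the contrasts that chose Ccr9, so the counts place the gene and support nothing further.

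**Figure D4:**
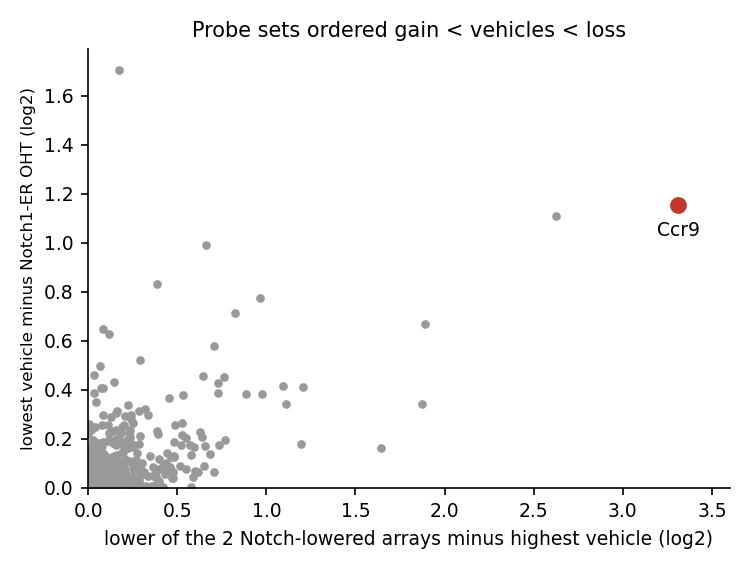
The 384 probe sets whose Notch1-ER OHT array is below all vehicle arrays and whose Notch-inhibited arrays are above them, 1 point each, with the gap on the inhibitor side (log2) on the horizontal axis and the gap on the Notch1-ER side (log2) on the vertical axis. Ccr9, in red, lies at 3.31 and 1.16, apart from a cloud near the origin.

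Over all 6 arrays the Ccr9 level spanned 5.64 on the log2 scale, or 49.7-fold. This was the widest span of the 12150 probe sets, of which the second widest was 4.99 and the median 0.48.

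Likeness to Ccr9 was measured as the cosine between the 3 within-pair differences of a probe set and those of Ccr9. A cosine of 1 means the same proportions and -1 the same proportions with opposite signs. It was taken over the 470 other probe sets whose 3 differences together had a length of at least 1 (the root of the summed squares), and all of them share the same 6 arrays. The length was 5.52 for Ccr9, the largest of all, with 4.54 for the next. Of the 470, 100 (21.3%) had a cosine of at least 0.95 and 32 (6.81%) had one of at most -0.95. The counts depended on the pairs used. Without the DAPT pair 31 probe sets had a cosine of at least 0.95, without the DNMAML-ER pair 85, and without the Notch1-ER pair 158. Of the 100 like probe sets, 51 also kept the order of the 6 arrays described above without overlap, and 15 of the 32 opposite ones kept the reverse order. Over all 12150 probe sets the shares were 3.16% and 2.49%. Cosine and order use the same arrays, so this overlap is partly built in. The shares over all 12150 also include probe sets that moved too little to enter the 470. The shares among the 470 were not computed, so the overlap has no like background. The lengths of the 100 like probe sets had a median of 1.28, so most moved much less than Ccr9. The longest of them had 4.54, the second largest length of all. A cosine of 0.95 leaves room for proportions unlike those of Ccr9, and 35 of the 100 reached 0.99.

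The table pairs no Ensembl ID with a gene symbol, and the reference gene table holds no Ensembl IDs to match, so other genes are given by ID. The name Ccr9 was supplied together with the ID of its probe set. The 2 probe sets most like Ccr9 were ENSMUSG00000094354 and ENSMUSG00000003746. ENSMUSG00000094354 had differences of 2.17 with DAPT, 1.86 with DNMAML-ER and -0.68 with Notch1-ER, with a cosine of 0.9997. It reached the floor on 2 of the 6 arrays, those with inhibited Notch, at 5.89 and 6.01, and entered the ranking only through them. Its levels were 3.72 with DMSO, 4.15 with ethanol in the DNMAML-ER line, and 4.25 (ethanol) and 3.56 (OHT) in the Notch1-ER line. Its Notch1-ER difference thus lay wholly below the floor. ENSMUSG00000003746 reached the floor on all 6 arrays. Its levels were 8.25 with DMSO and 9.45 with DAPT, 7.91 (ethanol) and 8.98 (OHT) with DNMAML-ER, and 7.80 (ethanol) and 7.41 (OHT) with Notch1-ER. It was thus 2.29-fold and 2.10-fold higher with the inhibitors and 1.31-fold lower with Notch1-ER, against 17.0-fold, 11.6-fold and 2.23-fold for Ccr9.

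The 2 probe sets most opposite to Ccr9 were ENSMUSG00000028337 and ENSMUSG00000040289. ENSMUSG00000028337 had 7.62 with DMSO and 6.16 with DAPT, 7.52 (ethanol) and 6.35 (OHT) with DNMAML-ER, and 8.31 (ethanol) and 8.65 (OHT) with Notch1-ER. ENSMUSG00000040289 had 7.33 and 5.68, 8.41 and 7.12, and 8.86 and 9.43 in the same order. Unlike those of Ccr9, the vehicle levels of ENSMUSG00000040289 differed between parental and fusion-carrying cells by more than 1, so its DNMAML-ER OHT level of 7.12 lay close to its DMSO level of 7.33. Across the 6 arrays the Pearson correlation with Ccr9 was 0.96 for ENSMUSG00000094354, 0.98 for ENSMUSG00000003746, -0.97 for ENSMUSG00000028337 and -0.91 for ENSMUSG00000040289. Of the probe sets other than Ccr9 that reached the floor, 137 had a correlation of at least 0.95 and 57 one of at most -0.95. The extremes were 0.999 and -0.996, so the named probe sets were not the most extreme by this measure. These values describe 6 arrays, and the named probe sets were picked for their cosine out of 470.

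Other chemokine receptors, CCL25, the integrins of gut homing, E and Id proteins, thymocyte stage genes, Notch targets and markers of T-lineage and other cell types were not analysed here, because their IDs could not be read from the table. The label of the cells as T lineage was therefore not checked against its markers, nor was the level of either fusion.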

How the data were processed

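Beko cells under 6 conditions were each measured on 1 Affymetrix array. The deposited table holds log2 expression levels from the authors' RMA run (version not stated), per the submitters' processing notes. The method corrects background, equalises the distributions of the arrays and summarises probes, so a change in total RNA per cell is not seen and low levels are compressed. Values ran from 1.51 to 14.01 over 22414 probe sets with 0 missing, and array medians from 5.43 to 5.61. The number of arrays limits the precision.

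Differences, ranks, gaps and cosines were computed with Python 3.11.15 and pandas 2.3.3 over the 12150 probe sets that reached the floor of 5.54 on at least 1 array. The code for ranks, counts and cosines was run on simulated data with less noise than these arrays show, and it recovered what was planted. The order of the arrays was checked there only for wide gaps. That is a check of the code and does not measure the precision of the counts. With 1 array per condition no pair could be tested singly, and a fit over the 3 pairs was left out because their pattern chose the gene. Other scalings were made with limma 3.58.1 in R 4.3.3. The gene, the lists and the settings were chosen with earlier results of these data known. IDs were printed by a rule, the 2 with the highest and the 2 with the lowest cosine. The order of the 6 arrays was added after the data were seen.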

Additional observations from a re-analysis of the deposited data

Results flagged for a closer look

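OHT went with opposite Ccr9 differences in the fusion lines. Relative to ethanol, Ccr9 was 3.53 higher on the log2 scale in the DNMAML-ER line and lower in the Notch1-ER line, with a difference of -1.16, so the lines differed by 4.69. This was the widest gap between the lines of the 12150 probe sets, of which the next had a size of 3.98. Both differences are among the values that chose Ccr9, so the gap and its place are a description and add nothing to them. Each line had 1 array per condition, and the difference was not tested.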

How the results depend on the processing

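The 3 treatment differences and the 3 differences between vehicle arrays of Ccr9 kept their sign and moved by less than 0.19, the scatter between the ethanol arrays, under a second quantile normalization, cyclic loess and median centring. Median centring shifted the median DAPT difference of all probe sets by 0.12 and gave 4.20 for Ccr9. Ccr9 ranked 1 with DAPT and with DNMAML-ER under each floor tried, the second quantile normalization and cyclic loess. Its rank in the Notch1-ER pair was 21 with no floor, because more weakly measured probe sets enter, 5 with the floor on the mean, 5 with the floor on both arrays of the pair, and 11 with cyclic loess. At 1.5-fold, 16 probe sets had its directions across the 3 pairs, and those ordered with both gaps at that size numbered 6. The count with a cosine of at least 0.95 was 100, against 35 at a limit of 0.99, 31 without the DAPT pair and 158 without the Notch1-ER pair, the cause of which was not tested. The pair-wise left-out counts, the limit of 0.99, the floor on both arrays and the alternatives for the order were chosen after seeing the data. The planned count of chemokine receptors was not run, since their IDs were not paired with symbols. The labels give no replicate numbers, so no fit with them as a block was made. A fit over the 3 pairs was left out, since the pattern over these pairs chose Ccr9.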
